A study of Rattus norvegicus with 12 samples.

Results

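High-voltage-activated calcium channel subunits were examined in cultured rat cerebellar cells. The set held 10 of the 26214 gene names on the array: the pore-forming subunits Cacna1a, Cacna1b, Cacna1c, Cacna1d, Cacna1e and Cacna1s, the beta subunits Cacnb4 and Cacnb2, and the alpha2delta subunits Cacna2d1 and Cacna2d2. Every gene probe whose gene name in the array files equalled a member was taken, which gave 15 of 30367 gene probes and 33 of 42877 gene spots. Of these 15 probes, 14 passed the filter on dim signals and were tested, and 7 were well above background on all 12 arrays.

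The cells came from the cerebellum of Sprague-Dawley rats aged 1 day, and RNA was taken at 16 days in vitro (DIV). From 2 DIV, 6 cultures received 1 µM acetamiprid (ACE), a neonicotinoid insecticide, and 6 control cultures received the solvent. Both groups carried dimethyl sulfoxide at 0.001%. Control versus ACE (CvA) asked whether long exposure to a low dose alters gene expression in developing cerebellar cells. Each replicate number stands for a separate culture experiment, in which both groups were seeded from a common lot of cells pooled from neonates of a single litter. The RNA was that of whole mixed cultures, so that fewer cells of a type and less RNA per cell cannot be told apart.

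High-voltage-activated calcium channels open on strong depolarisation and let calcium into the cell. The alpha1 subunit forms the pore and sets the current type, the beta subunit lies inside the cell and brings the pore to the membrane, and the alpha2delta subunit lies outside and raises the number of channels at the surface. In cerebellar neurons, P/Q-type and N-type channels trigger transmitter release, L-type channels couple electrical activity to gene expression, and R-type channels carry a further share of the current.

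The probes were 60-mers, and an array reads only the transcripts that hold the probe's sequence. The opening 30 bases of 10 probes are shown 5′ to 3′, because the results below rest on single probes and because 2 probes of a gene did not always give like values. No base is capitalised, since no stretch of a probe was singled out.
Cacna1a A_44_P306551: ctgtggagatgagagaaatgggaactgatg
Cacna1a A_64_P316652: cctcctcctgttttttgcaatccttatttt
Cacna1c A_44_P203145: ctgtcccacgagatatgcaaaagcaatgca
Cacna1c A_64_P057746: tgacgcctgcgatatgacaatagaggagat
Cacna1e A_64_P067610: aaagaaaatacaggaatgtgggggtttatt
Cacna1e A_64_P090712: aggttagtgaattaaaaagtgtgcagtcct
Cacna1s A_64_P011679: cataaagtcactccatccaaccagcttgac
Cacnb4 A_44_P274459: ccaattggagctagacgtaaagtctctttc
Cacnb4 A_64_P149300: actaccctctggtggaagaagattatcctg
Cacnb2 A_44_P449819: gagccaaaggaagattattcacatgaacat

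In the rat build rn4 used by the files, the Cacna1a probes lay at chr19:25194788-25194847 and chr19:25320530-25320589, the Cacna1e probes at chr13:69367030-69367089 and chr13:69372626-69372685, and the Cacnb4 probes at chr3:33935027-33935086 and chr3:33936598-33936657, in the order printed above and on the minus strand. The Cacna1c probes lay at chr4:154895974-154896033 and chr4:154897419-154897478 on the minus strand, and the Cacnb2 probe at chr17:89076857-89076916 on the plus strand. The files placed the Cacna1s probe nowhere on that build. The remaining probes were at chr3:2873479-2873538 and chr3:2893850-2893909 (Cacna1b), chr16:5384279-5384338 (Cacna1d), chr4:15140270-15140329 (Cacna2d1) and chr8:112775143-112775202 (Cacna2d2). Whether a probe falls in a coding exon or an untranslated region was not analysed here. The 2 probes of a gene shared no run longer than 6 bases, and no member probe shared a run longer than 10 bases with a probe of another member. A single member probe, Cacna1c A_64_P057746, shared 16 or more bases with a probe of any other gene, a run of 18 bases with a probe of Ndufa13.

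Promoters were read from RefSeq on build GRCr8 as the 250 bases before each annotated start. All 10 symbols matched RefSeq, and 9 genes had 1 or more promoters, 12 in all. Cacna1s is shown because its values stood apart from those of the other members, and Cacna1b because it ran opposite to Cacna1s over the arrays. Capitals mark CAGCTG, a form of E-box, and TATAAA, each searched on both strands. The Cacna1s promoter lies at chr13:50045418-50045667 on the plus strand and the Cacna1b promoter at chr3:27944286-27944535 on the minus strand.
Cacna1s: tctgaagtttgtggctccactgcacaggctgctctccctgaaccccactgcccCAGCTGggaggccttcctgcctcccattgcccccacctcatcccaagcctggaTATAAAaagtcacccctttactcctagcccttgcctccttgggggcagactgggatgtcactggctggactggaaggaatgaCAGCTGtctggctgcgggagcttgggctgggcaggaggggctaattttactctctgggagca
Cacna1b: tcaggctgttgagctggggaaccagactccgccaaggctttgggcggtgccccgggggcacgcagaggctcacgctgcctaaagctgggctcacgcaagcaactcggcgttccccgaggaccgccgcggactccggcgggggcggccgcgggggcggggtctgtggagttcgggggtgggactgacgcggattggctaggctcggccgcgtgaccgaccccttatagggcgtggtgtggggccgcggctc

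The Cacna1s promoter held CAGCTG at positions -197 and -62 from the start and TATAAA at -144. Neither motif was found in the other 11 member promoters. Each thus stood in 1 of 12 member promoters, near the 11.97% and 12.93% of all 33469 promoters of that length. GGGCGG (both strands) stood in 8 of the 12 member promoters, among them that of Cacna1b, but not in that of Cacna1s, and in 30.47% of all promoters. These 8 belonged to 6 of 9 genes, since 3 were promoters of Cacna2d1, 2 of which shared 238 of their 250 bases. CCAAT (both strands) stood in the promoters of Cacna1b and Cacna1c, 2 of 12, against 34.02% of all. No member promoter (0 of 12) held a MEF2 site or a CArG box, which stood in 2.96% and 1.5% of all promoters, respectively. GC content was 59.2% for Cacna1s, 45.6% to 88.8% over the other 11 member promoters and 51.2% in the median of all promoters. A match describes these letters and is not a measured binding site.

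Signals are given as log2 of the processed intensity after quantile normalisation between the 12 arrays, so that a difference of 1 is a doubling. They are not levels of expression that can be set against those of another probe, and no order of the 10 genes was made. The 75th percentile of the processed intensity ran from 1803 to 4384 units over the arrays, and 75.4% to 91.0% of gene spots were well above background. No spot was saturated (0 of them). The 10 tested probes of the pan-neuronal marker list were well above background on all 12 arrays. Both arrays of replicate 1 stood apart from the rest for several members, and were read with an earlier version of the extraction software than the other 10. In each pair the control array held place 1 and the ACE array place 3 of the slide, so that place and exposure cannot be told apart. Differences are ACE minus control, tested per probe with limma and the replicate number as a block, with Benjamini-Hochberg adjustment over all 23796 tested probes.

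No member passed the adjusted threshold of 0.05, nor did any other probe (0 of 23796, 0% called). Of the 14 member probes, 3 had an unadjusted limma p under 0.05, 1 higher in ACE (Cacnb2) and 2 lower (Cacna1a and Cacnb4). Over all tested probes 16.6% were under that value, 6.9% higher and 9.73% lower, and the members' count was near this background. With arrays scaled by the 75th percentile instead, the 3 member probes under 0.05 were all lower (0 higher), and the higher probes among all those under 0.05 made up 19.1%, against 41.5% after quantile normalisation. The same direction in all 6 pairs was seen in 1 of 14 member probes (Cacnb4), against 11.6% of all tested probes. The median difference was -0.04 log2 over the 14 member probes and -0.0050 log2 over all tested probes, with 6 member probes higher and 8 lower. These medians were -0.14 and -0.03 log2 with scaling by the 75th percentile, and the member median was 0.02 log2 without replicate 4 or without replicate 6. The median size of a difference, irrespective of sign, was 0.15 log2 for members and 0.06 log2 for all tested probes, and the median SD between the pair differences of a probe was 0.22 log2 and 0.12 log2, respectively. The control and ACE ranges overlapped for all 15 probes. These ranges disregard the pairing, and the share of all probes with such an overlap was not analysed here.

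**Figure D1:**
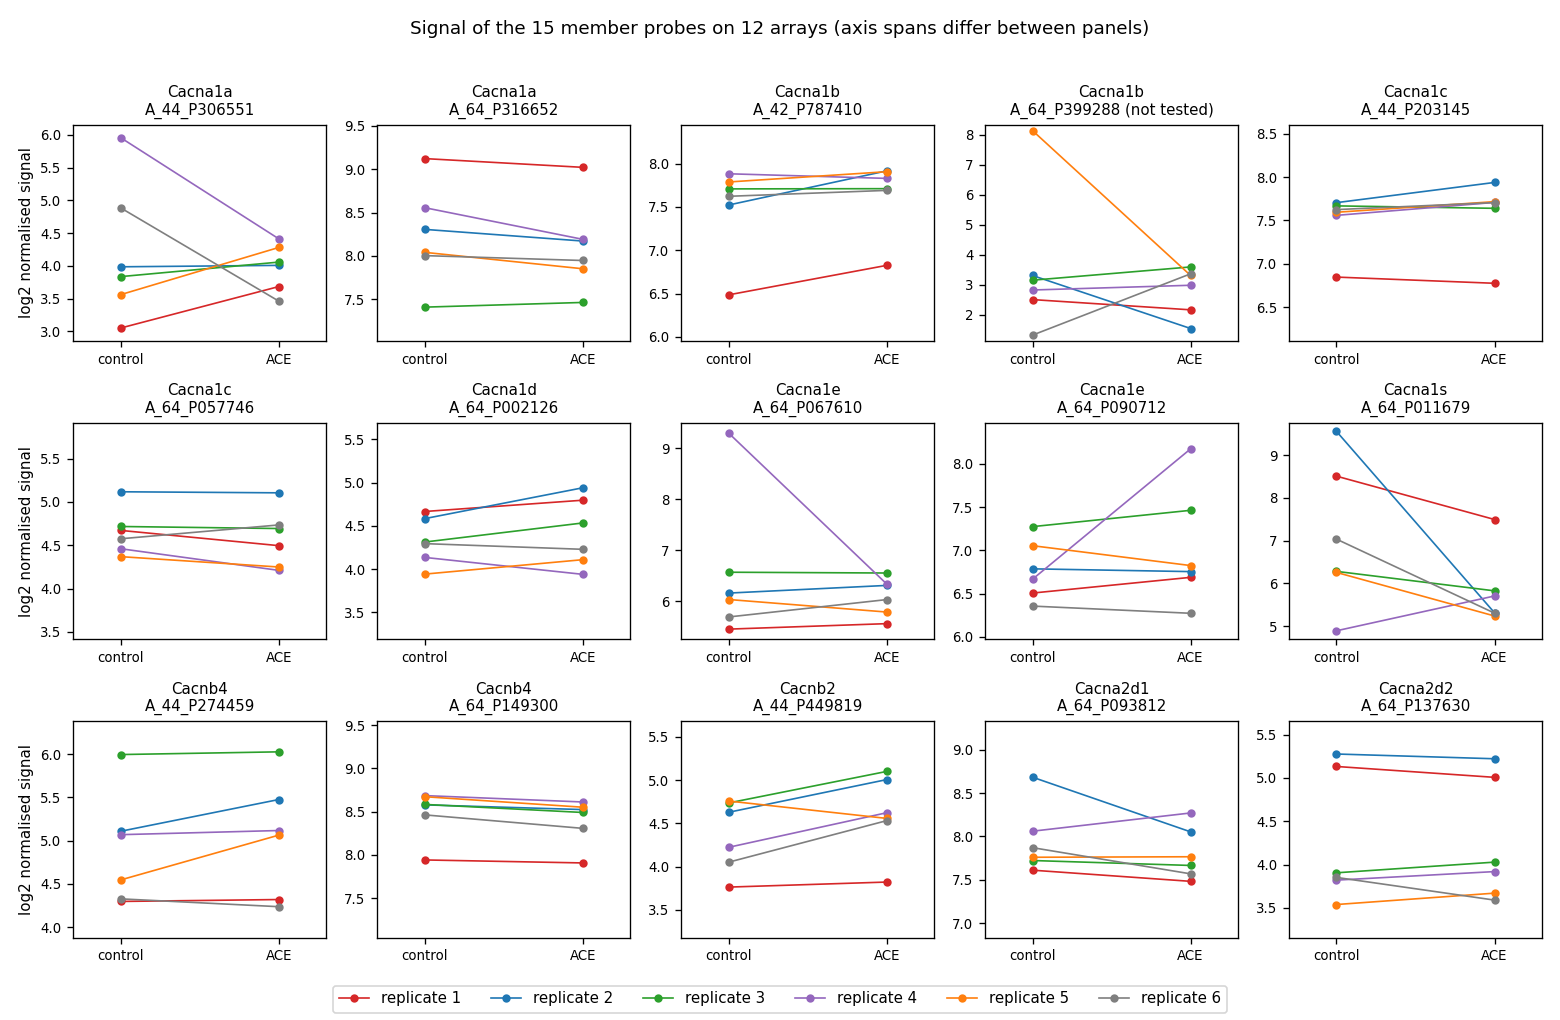
Log2 normalised signal of the 15 probes of the 10 genes, with the control and ACE array of a replicate joined by a line; the span of the vertical axis differs between panels. Replicate 1 lay lowest on both arrays for Cacna1b A_42_P787410, Cacna1c A_44_P203145 and Cacnb4 A_64_P149300, and Cacna1s A_64_P011679 was lower in ACE in 5 of 6 pairs.

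Cacna1a encodes the pore of the P/Q-type channel, the main calcium channel of Purkinje cells and of cerebellar nerve endings. On probe A_64_P316652, which was well above background on every array, the log2 signal was 7.41, 8.17 and 9.12 (lowest, median, highest) in control and 7.46, 8.06 and 9.02 in ACE. Replicate 1 was the highest and replicate 3 the lowest in both groups, and 5 of 6 pairs were lower in ACE by at most 0.37 log2. The mean difference was -0.13 ± 0.05 log2 (SE, n = 6 pairs; limma 95% interval -0.26 to -0.0013, unadjusted p of 0.0484, adjusted p of 0.297), and the exact two-sided sign-flip permutation over the 6 pairs gave p of 0.0625. Leaving out any of replicates 1, 2, 4, 5 or 6 put the unadjusted p above 0.05, with differences from -0.15 to -0.09 log2 in those cases, and so did replicate as a random block (unadjusted limma p of 0.133), the deposited values (0.0559) and no filter (0.0555). The second probe, A_44_P306551, was dimmer and was well above background on 4 control and 5 ACE arrays. Its log2 signal was 3.05, 3.91 and 5.96 in control and 3.46, 4.03 and 4.41 in ACE. Here 4 pairs were higher and 2 lower in ACE, and the 2 lower ones, replicates 4 and 6, moved by -1.54 and -1.42 log2. The mean difference of -0.23 ± 0.36 log2 (SE, n = 6 pairs, adjusted limma p of 0.769) turned to 0.03 without replicate 4 and to 0.01 without replicate 6, and was -0.45 log2 with scaling by the 75th percentile.

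Cacna1b encodes the N-type pore, which works beside the P/Q-type in transmitter release. Probe A_42_P787410 was printed as 10 spots per array, and the SD between its spots was 0.04 to 0.31 log2, with a median of 0.09. Its log2 signal was 6.48, 7.67 and 7.88 in control and 6.83, 7.77 and 7.92 in ACE. Replicate 1 was the lowest in both groups, and the other 10 arrays lay between 7.52 and 7.92. ACE was higher in 5 of 6 pairs, with a mean difference of 0.15 ± 0.07 log2 (SE, n = 6 pairs; limma 95% interval -0.02 to 0.31, unadjusted p of 0.0750, adjusted p of 0.346). It was 0.11 log2 without replicate 1 and 0.10 log2 without replicate 2, the pair with the largest difference (0.39 log2). With outlier spots kept, the difference was 0.16 log2 with an unadjusted limma p of 0.0135. Without replicate 4 it was 0.18 log2 with an unadjusted limma p of 0.0413, and it was 0.08 log2 with scaling by the 75th percentile. The second probe, A_64_P399288, did not pass the filter and was well above background on 3 control and 2 ACE arrays. It was 8.13 log2 in control replicate 5 and 1.32 to 3.59 log2 on the other 11 arrays.

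Cacna1c and Cacna1d encode the L-type pores of neurons and heart. Probe A_44_P203145 of Cacna1c, also of 10 spots, gave a log2 signal of 6.85, 7.61 and 7.71 in control and 6.77, 7.71 and 7.94 in ACE. As for Cacna1b, both arrays of replicate 1 lay below all the others, which spanned 7.56 to 7.94. The mean difference was 0.08 ± 0.05 log2 (SE, n = 6 pairs; limma 95% interval -0.03 to 0.19, adjusted p of 0.414), and 0.11 log2 without replicate 1, where the unadjusted limma p was 0.0472. The second Cacna1c probe, A_64_P057746, gave a difference of the other sign. It was 4.37, 4.62 and 5.12 log2 in control and 4.21, 4.59 and 5.10 log2 in ACE, lower in 5 of 6 pairs, with a mean difference of -0.07 ± 0.06 log2 (SE, n = 6 pairs, adjusted limma p of 0.549). It was under an unadjusted limma p of 0.05 without replicate 6 (-0.12 log2) and with scaling by the 75th percentile (-0.18 log2), and was -0.03 log2 without replicate 4. The first probe was at 0.05 log2 without replicate 2 and 0.03 log2 with that scaling.

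Cacna1d was read by probe A_64_P002126 alone, which was well above background on 3 arrays of each group. Its log2 signal was 3.94, 4.30 and 4.67 in control and 3.94, 4.38 and 4.94 in ACE. Replicates 1 and 2 were the highest in both groups. The mean difference was 0.10 ± 0.07 log2 (SE, n = 6 pairs, adjusted limma p of 0.515), and it turned to -0.03 log2 with scaling by the 75th percentile. It was 0.05 log2 without replicate 2 and 0.16 log2 without replicate 4, where the unadjusted limma p was 0.0460.

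Cacna1e encodes the R-type pore. On probe A_64_P090712 the log2 signal was 6.36, 6.73 and 7.27 in control and 6.27, 6.79 and 8.17 in ACE, and on probe A_64_P067610 it was 5.46, 6.10 and 9.30 in control and 5.56, 6.17 and 6.56 in ACE. The extreme value of each probe belonged to replicate 4, to its ACE array on the former and its control array on the latter. The mean differences were 0.26 ± 0.23 log2 and -0.44 ± 0.45 log2, respectively (SE, n = 6 pairs, adjusted limma p of 0.593 and 0.646). Without replicate 4 they became 0.0051 log2 and 0.07 log2. Each probe was a single spot, and the extreme spots carried no outlier mark.

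Cacna1s encodes the voltage sensor of skeletal muscle, an L-type pore that opens the calcium store of the muscle fibre. It gave the largest mean difference of the 14 tested member probes. The log2 signal of probe A_64_P011679 was 4.89, 6.66 and 9.56 in control and 5.24, 5.51 and 7.50 in ACE. Control replicates 1 and 2 were the highest arrays, ACE replicate 1 came next, and control replicate 4 was the lowest of all 12 and the only array on which the probe was not well above background. ACE was lower in 5 of 6 pairs, by 0.46 to 4.25 log2, and higher by 0.81 log2 in replicate 4, against that dim control array. The mean difference was -1.28 ± 0.60 log2 (SE, n = 6 pairs; limma 95% interval -2.73 to 0.18, unadjusted p of 0.0758, adjusted p of 0.347), and the exact sign-flip permutation gave p of 0.0938. Without replicate 2 it was -0.68 log2, and in scan batch 4, the only batch with more than 1 pair (replicates 4 to 6), it was -0.65 log2. With replicate as a random block the unadjusted limma p was 0.0186, and without replicate 4 it was 0.0272.

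Skeletal muscle transcripts moved with Cacna1s over the arrays. All 19 tested probes of a skeletal muscle marker list (17 genes, Cacna1s not among them) were lower in ACE in the mean, 5 of them at an unadjusted limma p under 0.05, with a median difference of -0.63 log2. Over all tested probes 12410 of 23796 were lower and 9.73% were lower at that value. Without replicate 2 the median of the list was -0.23 log2 with 17 of 19 lower, and in scan batch 4 alone it was -0.31 log2 with 15 of 19 lower. The probes called lower numbered 3 to 6 when a replicate was left out, 10 with replicate as a random block and 0 with no replicate block. Among these 5, Myh3 (embryonic myosin) was at -3.08 ± 1.15 log2 and Mb (myoglobin) at -1.12 ± 0.35 log2 (SE, n = 6 pairs, adjusted limma p of 0.264 and 0.214). Myh3 was at -2.02 log2 without replicate 2, and its unadjusted limma p was above 0.05 without replicate 3 or 6. The mean log2 signal over that list ran from 7.28 to 10.61 in control and from 7.10 to 9.52 in ACE. It was 10.07 and 10.61 in control replicates 1 and 2, 9.52 in ACE replicate 1 and 8.45 in control replicate 6, and lay between 7.10 and 7.55 on the other 8 arrays. The pair differences of the list mean were -0.55, -3.06, -0.22, 0.02, 0.01 and -1.35 log2 for replicates 1 to 6, beside -1.01, -4.25, -0.46, 0.81, -1.02 and -1.73 log2 for Cacna1s. Of the 25 probes of the list, 14 were well above background on all 12 arrays, while Myod1, a master regulator of the muscle lineage, was well above background on 3 control arrays and 1 ACE array. The part of muscle cells in the Cacna1s difference was not tested.

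**Figure D2:**
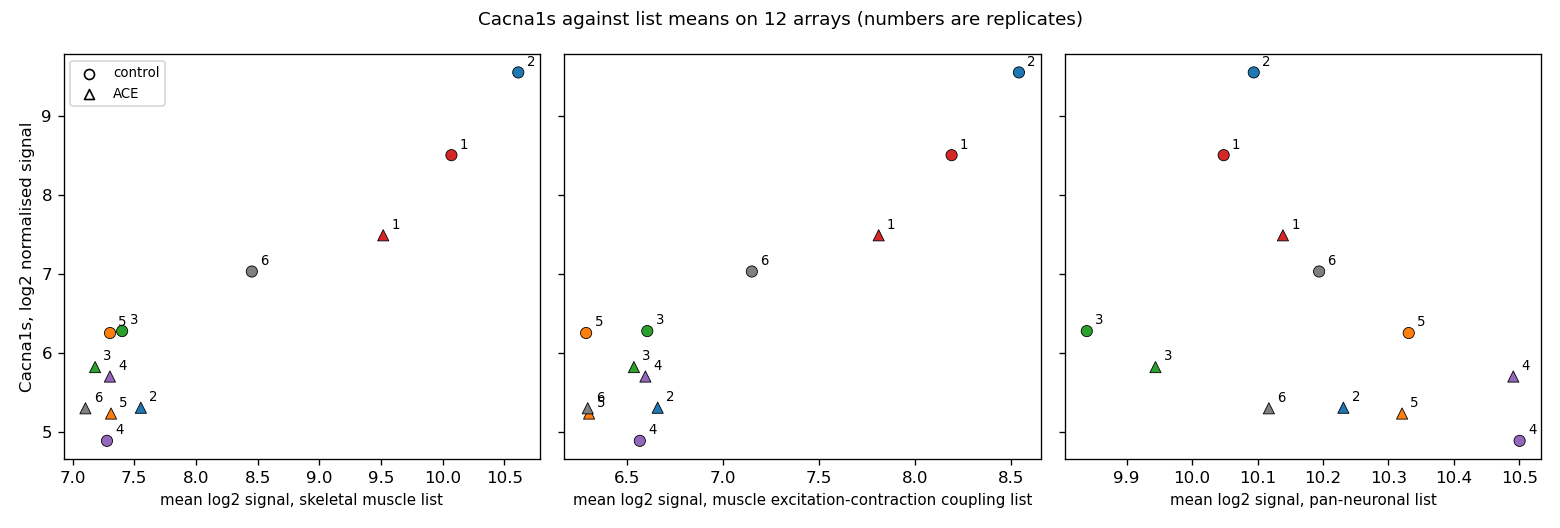
Log2 signal of Cacna1s on the 12 arrays against the mean log2 signal of the skeletal muscle list, the muscle excitation-contraction coupling list and the pan-neuronal list; circles are control, triangles ACE, and numbers are replicates. Cacna1s followed both muscle lists (Pearson r of 0.95 and 0.94 over 12 arrays) and had an r of -0.40 with the pan-neuronal list, the control and ACE arrays of a replicate sharing a lot and a slide.

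Genes of excitation-contraction coupling join Cacna1s to the calcium store. Of 12 tested probes (10 genes), 12 were lower in ACE in the mean, with a median difference of -0.43 log2, or -0.17 log2 without replicate 2, where 11 of 12 were lower. A single probe had an unadjusted limma p under 0.05, a share no higher than the 9.73% of all tested probes that were lower at that value. With scaling by the 75th percentile there were 5. That probe was A_64_P094855 of Jsrp1, which binds the muscle channel at the store: it was 9.10, 10.23 and 11.79 log2 in control and 8.91, 10.04 and 11.67 log2 in ACE, lower in 6 of 6 pairs by -0.25 ± 0.07 log2 in the mean (SE, adjusted limma p of 0.206), and its unadjusted p was 0.0754 with replicate as a random block. Trdn (triadin) was at -1.11 ± 0.50 log2, with 5 of 6 pairs lower, and Atp2a1 (the calcium pump of the store) at -0.81 ± 0.60 log2, with 3 of 6 lower (SE, adjusted limma p of 0.324 and 0.518). Without replicate 2 they were at -0.63 and -0.18 log2. Trdn was at -0.65 log2 under the normexp correction, and its unadjusted limma p was 0.0153 with replicate as a random block and 0.0405 without replicate 4.

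Cacnb4 encodes the beta subunit best known from the cerebellum, where it pairs with the P/Q-type pore. Probe A_64_P149300 gave a log2 signal of 7.94, 8.58 and 8.69 in control and 7.91, 8.51 and 8.61 in ACE. Replicate 1 was the lowest in both groups. It was the only member probe with the same direction in all 6 pairs, lower in ACE by 0.03 to 0.16 log2. The mean difference was -0.09 ± 0.03 log2 (SE, n = 6 pairs; limma 95% interval -0.15 to -0.03, unadjusted p of 0.0126, adjusted p of 0.20), a fold of 0.940, and the exact sign-flip p was 0.03125, the smallest that 6 pairs can give. Under the normexp background correction it was -0.03 log2 with an unadjusted limma p of 0.281, and with replicate as a random block the unadjusted limma p was 0.0531. The second probe, A_44_P274459, was well above background on 3 control and 5 ACE arrays and differed in the other direction. It was 4.30, 4.81 and 5.99 log2 in control and 4.24, 5.09 and 6.03 log2 in ACE, higher in 5 of 6 pairs, with a mean difference of 0.15 ± 0.09 log2 (SE, n = 6 pairs, adjusted limma p of 0.429), 0.08 log2 without replicate 5 and 0.01 log2 with scaling by the 75th percentile.

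Cacnb2 encodes a beta subunit that serves L-type channels in heart and also occurs in brain. Its probe A_44_P449819 was 3.76, 4.43 and 4.76 log2 in control and 3.82, 4.59 and 5.10 log2 in ACE, and was well above background on 4 control and 5 ACE arrays. The control arrays of replicates 3 and 5 were the highest of their group, and ACE was higher in every pair but replicate 5. The mean difference was 0.25 ± 0.10 log2 (SE, n = 6 pairs; limma 95% interval 0.02 to 0.48, unadjusted p of 0.0400, adjusted p of 0.278), with an exact sign-flip p of 0.0938. It was 0.13 log2 with scaling by the 75th percentile and 0.07 log2 with the normexp background correction, both at an unadjusted limma p above 0.05, and leaving out any of replicates 2, 3, 4 or 6 also put that p above 0.05, at differences of 0.20 to 0.22 log2. With replicate as a random block it was 0.0179.

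Cacna2d1 and Cacna2d2 encode alpha2delta subunits, the targets of gabapentin, and Cacna2d2 is abundant in Purkinje cells. Cacna2d1 (A_64_P093812) was 7.61, 7.82 and 8.68 log2 in control and 7.48, 7.72 and 8.27 log2 in ACE. Replicate 2 was the highest in control and replicate 4 in ACE, and the mean difference was -0.15 ± 0.11 log2 (SE, n = 6 pairs; limma 95% interval -0.40 to 0.10, adjusted p of 0.499), or -0.05 log2 without replicate 2. Cacna2d2 (A_64_P137630) was 3.54, 3.88 and 5.28 log2 in control and 3.59, 3.97 and 5.22 log2 in ACE, and was well above background on 3 control and 3 ACE arrays. Replicates 1 and 2 lay above 5.00 log2 in both groups and the other 8 arrays at or below 4.03 log2. Its difference was the smallest of the members, -0.015 ± 0.061 log2 (SE, n = 6 pairs; limma 95% interval -0.16 to 0.13, adjusted p of 0.919), and it was -0.16 log2 with scaling by the 75th percentile.

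**Figure D3:**
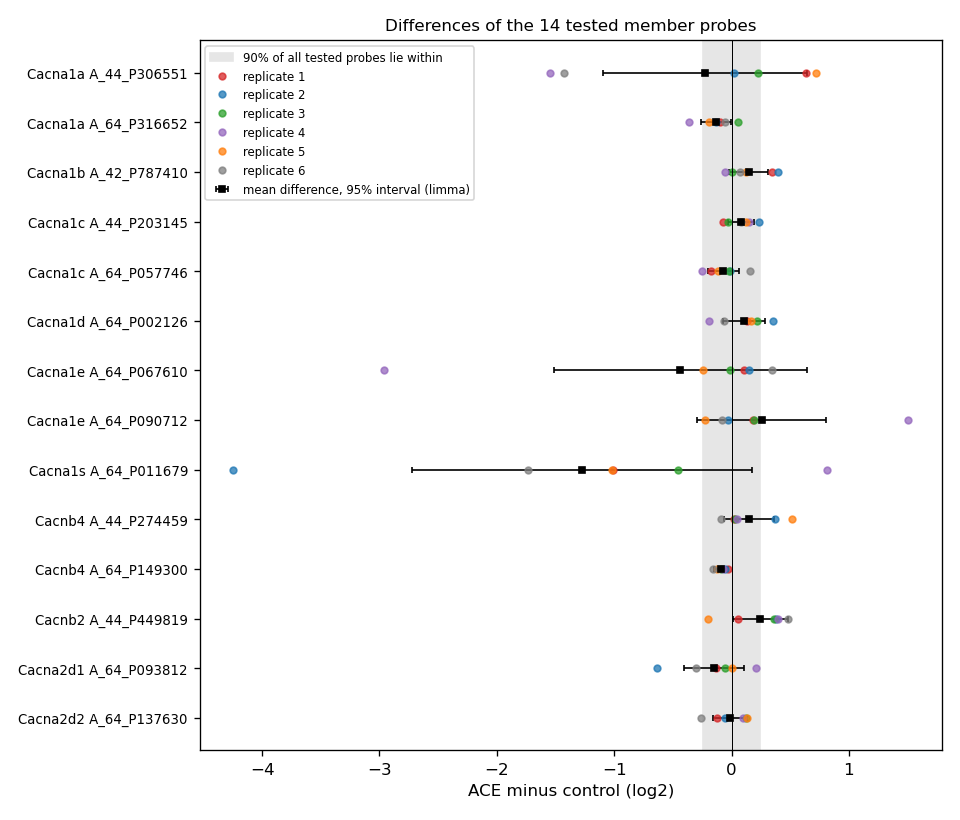
ACE minus control (log2) for the 14 tested probes: coloured points are the 6 replicate pairs, squares the mean with its limma 95% interval, and the grey band spans 0.24 log2 to either side of 0, within which 90% of all tested probes lay. Wide intervals belong to probes in which 1 or 2 pairs lay far from the rest, such as replicate 4 of Cacna1e and replicate 2 of Cacna1s.

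The variation of each member probe was split between the culture lot (replicate number, which is also the slide) and the exposure. With no effect of either, their mean shares would be 45.5% and 9.09%, since lot takes 5 of the 11 degrees of freedom and exposure 1. Where lot takes most of the variation, little is left to the exposure and the remainder. The mean exposure share without an exposure effect then lies below 9.09%, so that value is no yardstick for the exposure shares given here. Lot made up 47.5% to 98.8% of the sum of squares over the 12 arrays, with a median of 90.8% over the 14 tested member probes and of 92.0% over all tested probes. The exposure made up 0.013% (Cacna2d2) to 21.4% (Cacna1s), with medians of 2.73% for members and 1.42% for all tested probes. The remainder had medians of 7.02% and 5.28%, respectively. The lot share of Cacna1s, 47.5%, was near the value without any effect. The lowest and the highest lot differed by a median of 1.16 log2 for member probes and 0.76 log2 for all tested probes. Lot 1 was the lowest for Cacna1a A_44_P306551, Cacna1b, Cacna1c A_44_P203145, Cacna1e A_64_P067610, Cacnb4 A_64_P149300, Cacnb2 and Cacna2d1, and the highest for Cacna1a A_64_P316652 and Cacna1s.

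**Figure D4:**
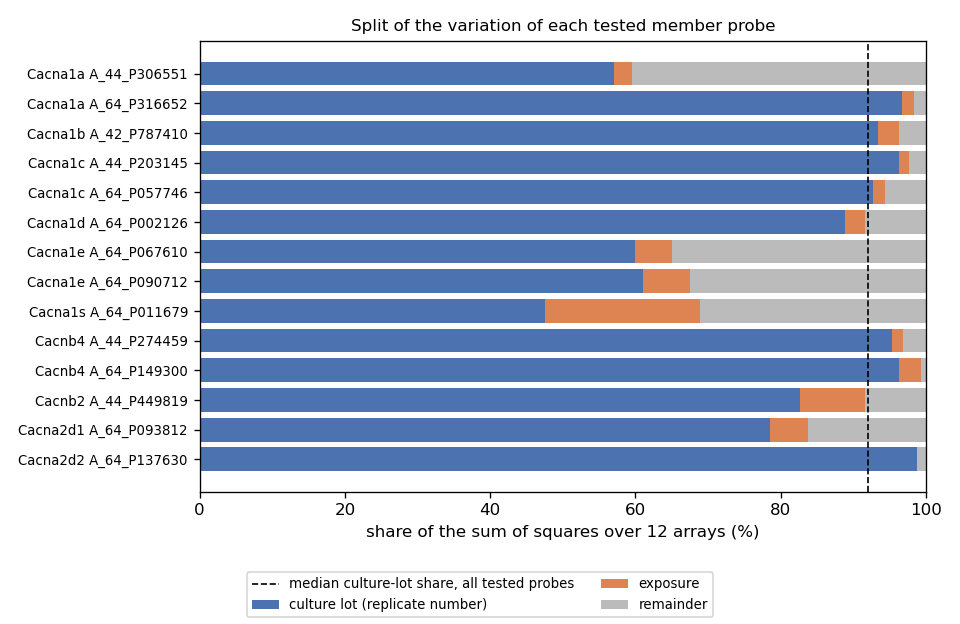
Share of the sum of squares over 12 arrays, in percent, taken by the culture lot, the exposure and the remainder for the 14 tested probes; the dashed line is the median lot share of all tested probes, 92.0%. The Cacna1s probe had the lowest lot share, 47.5%, and the highest exposure share, 21.4%.

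Correlations between members over the arrays changed without replicate 1, and became smaller in size for 35 of the 45 pairs of genes and larger for 10. Using the brightest tested probe of each gene, Pearson's r over 12 arrays was 0.93 between Cacna1b and Cacna1c, 0.91 between Cacna1b and Cacnb4 and -0.73 between Cacna1a and Cacna1b. Without replicate 1 these became 0.27, 0.34 and 0.18 over 10 arrays. The other way, r went from -0.34 to 0.67 for Cacna1c with Cacna1d, from -0.39 to 0.66 for Cacna1c with Cacna2d2, from -0.0064 to 0.64 for Cacna1a with Cacna2d1 and from 0.27 to 0.71 for Cacna2d1 with Cacna2d2. Among the pairs that kept their sign were Cacna1d with Cacna2d2 (0.87, and 0.83 without replicate 1) and Cacna1b with Cacna1s (-0.69 and -0.83). The probes of Cacna1d and Cacna2d2 were well above background only on the arrays of replicates 1, 2 and 3, so their r rests partly on dim values. Arrays of a replicate share a lot, a slide and a scan, and these values are a description. Between the 2 probes of a gene, r over the 12 arrays was -0.09 for Cacna1a, 0.19 for Cacna1c, 0.10 for Cacna1e and 0.54 for Cacnb4. Their mean differences had opposite signs for Cacna1c, Cacna1e and Cacnb4.

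The probes of other genes whose pattern over the 12 arrays was most like a member's were found by Pearson's r. For Cacna1s they were Trdn, Myh3 (embryonic muscle myosin) and Acta1 (skeletal muscle actin), with r of 0.97, 0.96 and 0.96, and of 0.96, 0.96 and 0.98 without replicate 1. For Cacna1a they were Fgf1, Rtn4rl2 and Gstm4, with r of 0.98 each, and of 0.95, 0.94 and 0.94 without replicate 1. Cacnb4 was most like Scn2a1, a sodium channel pore, Tango2 and Kcnip4, a partner of potassium channels, each with r of 0.96, which fell to 0.82, 0.70 and 0.65 without replicate 1. For Cacna1b (Pold3, Epha8 and Kcnip4) r was 0.97 to 0.98, and 0.73 to 0.79 without replicate 1. For Cacna1c (Iqcb1, Mettl9 and Narg2) it was 0.97 to 0.98, and 0.53 to 0.72 without it. Cacna1d was most like Rbm28, Pole4 and Yaf2 (0.95 to 0.97), Cacna1e like Armc4, Acot2 and Itga6 (0.91 to 0.92), Cacnb2 like Gpr137b, Gtf2a1l and Pqbp1 (0.95 to 0.97), Cacna2d1 like Neurl2, Pex19 and Vps33a (0.88 to 0.91) and Cacna2d2 like Psmc3ip, Ikbkb and Nudt22 (0.98 to 0.99).

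No probe of the remaining high-voltage subunits was called. Of 4 tested probes of Cacnb1, Cacnb3 and Cacna2d3, 0 were under an unadjusted limma p of 0.05, with differences of -0.17 to 0.08 log2. Cacna1f, the L-type pore of the retina, and Cacna2d4 did not pass the filter, and were well above background on 1 and 0 of the 12 arrays, respectively.

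T-type pores open at low voltage, and 3 of their 5 tested probes were under an unadjusted limma p of 0.05, against 16.6% of all tested probes. Cacna1h (A_64_P067366) was 8.52, 9.32 and 9.92 log2 in control and 9.29, 10.00 and 10.44 log2 in ACE. It was higher in ACE in 6 of 6 pairs, although the ranges overlapped, and the mean difference was 0.69 ± 0.13 log2 (SE; unadjusted limma p of 0.00147, adjusted p of 0.143), a fold of 1.61. The 2 probes of Cacna1i were lower in ACE in 6 of 6 pairs, by -0.21 ± 0.04 and -0.16 ± 0.05 log2 in the mean (SE, adjusted limma p of 0.147 and 0.214). These probes overlap on the genome and are no separate evidence, and their unadjusted p was 0.0521 and 0.0703 with replicate as a random block. Those of Cacna1g were at 0.07 log2 each, and at -0.06 and -0.0075 log2 with scaling by the 75th percentile. The first was at 0.02 log2 without replicate 4 and the second at 0.0013 log2 without replicate 6.

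Of 9 tested probes of gamma subunits, 1 was under an unadjusted limma p of 0.05, against 16.6% of all tested probes. This was A_64_P064820 of Cacng1, the gamma subunit of the skeletal muscle channel, which was lower in ACE in 6 of 6 pairs by -1.01 ± 0.41 log2 in the mean (SE, adjusted limma p of 0.290). It was -0.60 log2 without replicate 2, and its unadjusted limma p was above 0.05 without replicate 1 or 6 and under the normexp correction (-0.55 log2). Its second probe was at -0.83 ± 0.59 log2 (SE, n = 6 pairs), -0.40 log2 without replicate 2 and -1.31 log2 without replicate 3, where the unadjusted limma p was 0.0425. The mean of the skeletal muscle list was lower in pairs 1, 2, 3 and 6, and its part in the Cacng1 values was not tested. The gamma subunits that traffic glutamate receptors, Cacng2, Cacng3, Cacng4, Cacng5, Cacng7 and Cacng8, were at -0.39 to 0.15 log2. The lowest of these, Cacng3, was at -0.09 log2 without replicate 1. Cacng6 was at -0.53 log2 on a probe well above background on 3 control and 4 ACE arrays, and at -0.26 log2 without replicate 6. Its unadjusted limma p was under 0.05 without replicate 5 (-0.71 log2), with scaling by the 75th percentile and with replicate as a random block.

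**Figure D5:**
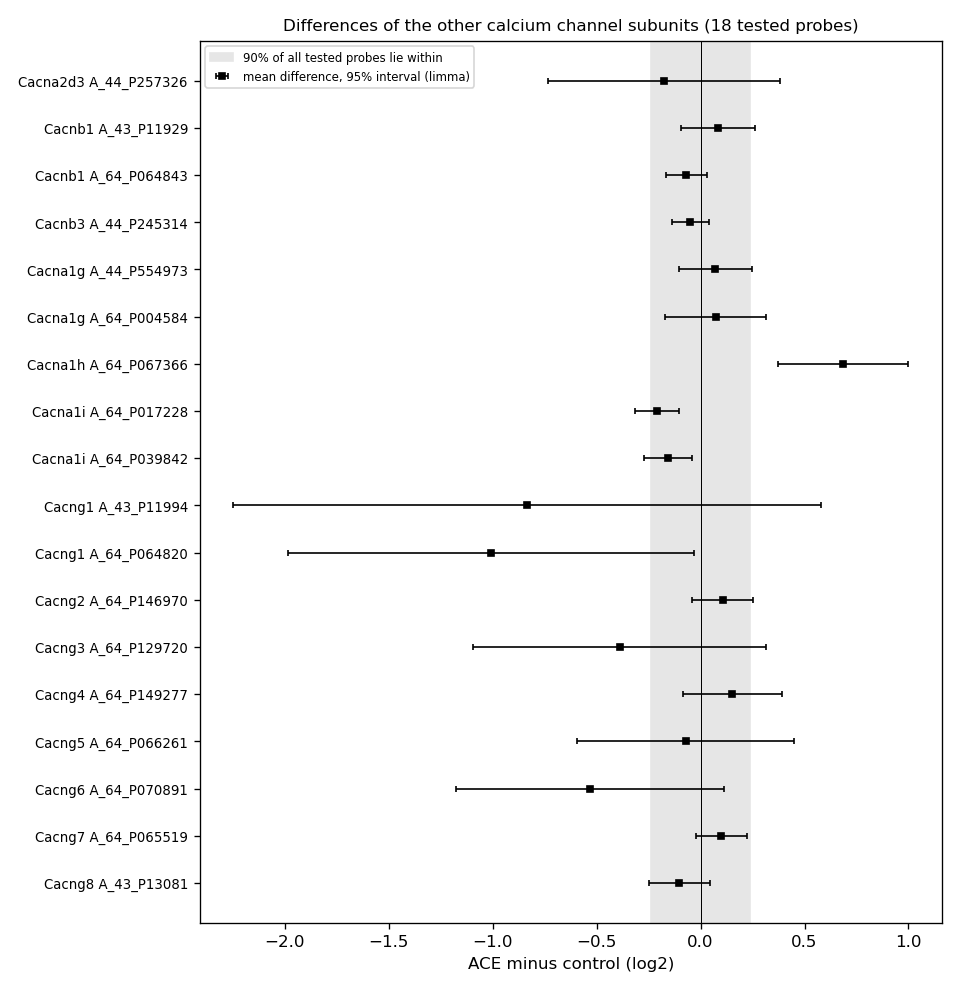
ACE minus control (log2) for the 18 tested probes of the other high-voltage subunits, the T-type pores and the gamma subunits: squares are means over 6 pairs with their limma 95% interval, and the grey band spans 0.24 log2 to either side of 0. The interval of Cacna1h lay above 0.24 log2, from 0.37 to 1.00 log2, and the Cacng1 intervals were the widest.

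P/Q-type and N-type channels serve the machinery of transmitter release. Of 27 tested probes (18 genes), 22 were higher in ACE in the mean, against 11386 of all 23796 tested probes, with a median difference of 0.09 log2. At an unadjusted limma p under 0.05, 6 were higher and 0 lower. The 6 probes stand against the background of 6.9% given above. With scaling by the 75th percentile 17 were higher, with a median of 0.04 log2, and at that p 4 were higher and 1 lower. Leaving out a replicate gave 4 to 8 called higher, and a fit with no replicate block gave 0. In scan batch 4 alone 15 of the 27 were higher, with a median of 0.05 log2, and without replicate 1 the median was also 0.05 log2. One probe of Bsn (bassoon, a scaffold of the release site) was higher by 0.25 ± 0.05 log2 and Rims1 (which tethers the channels there) by 0.39 ± 0.09 log2, each in 6 of 6 pairs (SE, adjusted limma p of 0.145 and 0.156), but the Rims1 probe was well above background on 1 control and 2 ACE arrays and was at 0.01 log2 under the normexp correction. The second Bsn probe, well above background on all 12 arrays, was at -0.05 log2 with 3 of 6 pairs higher. Among 29 tested probes of channel regulators, a probe of Calm2 (calmodulin, the channels' calcium sensor) and that of Rrad (a GTPase that restrains them) were lower at an unadjusted limma p under 0.05, by -0.11 ± 0.04 and -0.20 ± 0.07 log2 (SE, n = 6 pairs), and 0 were higher. This share lay below the 9.73% of all tested probes lower at that value. The files place that Calm2 probe at chr15:64162294-64162353 and the other 2 Calm2 probes, at -0.01 and -0.07 log2, on chromosome 6, so that the transcript it reads is uncertain. Calm2 was above that p without replicate 1, 2, 4 or 6, and Rrad without replicate 2 or 5. Among 10 tested probes of calcium-activated potassium channels, a probe each of Kcnn3 and Kcnmb2 was lower at an unadjusted limma p under 0.05. They were at -0.11 ± 0.03 and -0.20 ± 0.05 log2 (SE, n = 6 pairs), and 9.73% of all tested probes were lower at that p. At that p 0 of the 10 were higher, while 4 were higher in the mean irrespective of p. The second Kcnmb2 probe, well above background on all 12 arrays, was at 0.08 log2 with 4 of 6 pairs higher, and the Kcnn3 probe had an unadjusted limma p of 0.0526 under the normexp correction. Of 5 tested probes of alpha2delta ligands 0 were under an unadjusted limma p of 0.05.

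The other lists of cell type markers held the following tested probes under an unadjusted limma p of 0.05, against 16.6% of all tested probes. There were 1 higher of 10 for the pan-neuronal list, 1 higher of 11 for granule cells, 2 lower of 13 for Purkinje cells, 1 higher of 9 for inhibitory interneurons, 1 lower of 14 for astrocytes, 2 higher and 1 lower of 11 for oligodendrocytes, 3 higher and 1 lower of 12 for microglia, and 0 of 8 each for meningeal fibroblasts and for smooth muscle and pericytes. The mean of the astrocyte list was lower in ACE in 6 of 6 pairs, by 0.02 to 0.09 log2, with 11 of 14 probes lower, and that of the calcium-activated potassium channel list in 6 of 6 pairs, by 0.04 to 0.16 log2, while that of the T-type list was higher in 6 of 6. These were 3 of the 18 lists other than the members. The astrocyte mean was lower in 5 of 6 pairs with scaling by the 75th percentile. With each probe weighted equally, the astrocyte mean was lower and the T-type mean higher in 5 of 6 pairs each, and the oligodendrocyte mean was higher in 6 of 6. With that weighting and scaling by the 75th percentile together, the astrocyte mean was lower in 4 of 6 pairs. The T-type mean was then higher in 3 of 6 pairs and the oligodendrocyte mean in 4 of 6. The single calls were Tubb3 (0.15 log2, neurons), Cbln1 (0.28, granule cells), Slc6a5 (0.33, inhibitory interneurons) and S100b (-0.12, astrocytes). Mag and Mbp were at 0.18 and 0.13 log2 and Cnp at -0.13 log2 in the oligodendrocyte list, and Csf1r and Aif1 at 0.28 and 0.19 log2 and Cx3cr1 at -0.35 log2 in the microglia list. Their adjusted limma p ran from 0.143 to 0.257. Second probes were at -0.02 log2 for Csf1r, -0.0042 for Slc6a5, -0.02 for S100b, 0.03 for Mbp, 0.10 for Mag and 0.10 for Aif1, all at an unadjusted limma p above 0.05. With replicate as a random block that p was above 0.05 for Cbln1, S100b, Mag, Mbp, Cnp and Pcp4, and with scaling by the 75th percentile for Slc6a5. Cbln1 was above an unadjusted p of 0.05 without replicate 2 or 3, S100b without replicate 1, 2, 3 or 4, Mag without 2, 4, 5 or 6, and Cnp without 2, 4 or 5. Pcp4, a calmodulin regulator of Purkinje cells, was at -0.12 ± 0.05 log2 (SE, n = 6 pairs, adjusted limma p of 0.270), and was above an unadjusted p of 0.05 without replicate 3, 4 or 6. The mean log2 signal of the Purkinje cell list ran from 8.93 to 9.76 in control and from 8.96 to 9.75 in ACE. The part of Purkinje cells in the Cacna1a and Cacnb4 values was not tested.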

How the data were processed

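RNA of 6 control and 6 ACE cultures was read on 1-colour arrays. Per the file headers, the authors read each spot's intensity with Agilent Feature Extraction (release 11.0.1.1 in replicate 1, 11.5.1.1 elsewhere), which subtracted the background and scaled nothing between arrays. The authors also deposited log2 values, quantile normalised and centred on each probe's median. These tracked the centred values computed here (r of 0.997 to 0.999 per array) and served as an alternative.

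Control spots and outlier-marked spots (447 probe values then missing) were left out, log2 intensities were quantile normalised, spots of a probe averaged, and probes kept above the 20th percentile of the array on 7 or more of the 12 arrays with at least 4 complete pairs. CvA was tested with limma 3.58.1 in R 4.3.3 (two-sided, replicate as a block) and, for members, an exact sign-flip permutation over pairs. Arrays of a pair deviated together (r of 0.449 to 0.912, against -0.439 to 0.390 for unlike numbers), and the study's methods state the shared lot. The headers placed each pair on a slide of its own and the slides in 4 scan batches. The number of arrays limits the precision. Scripts were tested on simulated data.

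All member probes are named. From each other list, up to 2 highest and 2 lowest genes with an unadjusted limma p under 0.05 are named, together with all other channel subunits and, for each member, the 3 most similar probes. A gene that this rule names is not reported here. Ndufa13, Myod1, Trdn and Atp2a1 were named after their values were seen. The members and lists were chosen with earlier results of these data known. Alternatives were another scaling, background correction, filter or block, the deposited values, and leaving out replicates. Weighting each probe of a list equally, in place of each gene, was added after the data were seen. Nicotine and imidacloprid cultures were not analysed here.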

Additional observations from a re-analysis of the deposited data

Results flagged for a closer look

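Within a group of 6 arrays, the highest or lowest value was marked where its gap to the next value was too large a share of the group's range by Dixon's criterion, which chance does in about 1 in 20 groups. It was met in 10 of 36 groups tested (14 member probes and 4 list means). Of these, 5 were low values of replicate 1: Cacna1b A_42_P787410 at 6.48 log2 in control and 6.83 in ACE, Cacna1c A_44_P203145 at 6.85 and 6.77, and Cacnb4 A_64_P149300 at 7.94 in control. A further 3 were high values of ACE replicate 1: Cacna1s at 7.50 log2, the skeletal muscle list mean at 9.52 and the excitation-contraction coupling list mean at 7.81. The others were control replicate 4 of Cacna1e A_64_P067610, at 9.30 log2 against 6.57 for the next array, and the mean over the 10 member genes in control replicate 2, at 6.61 against 6.11 for the next. That mean takes in Cacna1s, which was at 9.56 log2 on the same array. The cause was not tested.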

How the results depend on the processing

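The count of 0 probes past the adjusted threshold held in all alternatives but replicate as a random block, which gave 5, none of them a member (lowest adjusted member p of 0.216). The 3 member probes at an unadjusted p under 0.05 became 1 with normexp background correction, 1 with the exact signed-rank test and 0 with no replicate block, and ranged from 1 (without replicate 2) to 4 (without replicate 4) when a replicate was left out. The lone member probe with a sign-flip p under 0.05 became 2 with scaling by the 75th percentile and 0 with normexp. The median member difference of -0.0426 log2 became -0.142 with that scaling and -0.0888 where probes had to be well above background on 12 arrays (7 member probes left), and ranged from -0.0610 to 0.0225 when a replicate was left out, positive without replicate 4 or 6. Differences that changed sign, none of them called, were Cacna1d (-0.0303) and Cacna1g (-0.0595 and -0.00749) with scaling by the 75th percentile, and Cacna1d (-0.0316), Cacng5 (0.288), Cacng3 (0.0767) and Cacng2 (-0.0251) in scan batch 4 alone. When a replicate was left out, the range crossed 0 for Cacna1a A_44_P306551 (-0.418 to 0.0346), Cacna1e A_64_P067610 (-0.592 to 0.0674), Cacna2d2 (-0.0442 to 0.0345), Cacna2d3 (-0.303 to 0.0693) and Cacng5 (-0.288 to 0.0730). Scaling by the 75th percentile moved the median of all probes from -0.00499 to -0.0342 log2. The cause was not tested. With 6 pairs the sign-flip test cannot go below 0.03125, and with 5 not below 0.0625. Several member probes were near background on some arrays, which limits what their differences can show.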
